A study of Mus musculus with 4 samples.

Results

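The genes described here carry inhibitory signalling in the brain: 22 genes for receptor subunits of the transmitters GABA and glycine, and 6 genes for making, loading and anchoring them or for setting the chloride gradient. These 28 genes were chosen by name, not by any measured value, though with earlier results of these data known. They come from 21774 protein-coding genes on the assembled chromosomes and were set against a list of binding sites of CTCF. CTCF contacts DNA through zinc fingers and takes part in chromatin looping with the cohesin complex. The cells were cultured cortical neurons of wild-type Swiss-Webster mice, taken on embryonic day 16 and collected after 13 days in culture. The treatment field lists none; the shared growth text also describes etoposide, a topoisomerase poison, given shortly before collection, and no sample is labelled with it. There were 2 CTCF immunoprecipitations, described as biological replicates, and 2 input libraries. The data are the authors' 33820 peaks matched between both immunoprecipitations whose irreproducible discovery rate (IDR) was 0.05 or lower. With 1 condition and 1 joint list no test over samples can be made, so what follows are positions, values and counts beside the same counts over all genes. Read depth is unknown. A peak list holds no marker levels, so the makeup of the cultures was not checked, and binding in GABAergic neurons and in other cells of a culture cannot be told apart.

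GABA is the main inhibitory transmitter of the cortex. It opens GABA-A receptors, chloride channels built of several subunits, and activates GABA-B receptors, which act through G proteins. Glycine opens a related chloride channel, best known from spinal cord and brainstem. Many GABA-A subunit genes lie in tight clusters that go back to duplications of an ancestral group, and subunit choice shifts during development and between cell types.

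Strength here means the deposited joint value of a peak, which adds up its −log10 p from either replicate, and its median over the whole list was 165.5. The replicate columns are called first and second, since nothing ties them to a numbered replicate. A summit within 1 kb of either gene end was counted as an end peak, any other summit between the ends as an inside peak, and a summit up to 50 kb outside as a nearby peak.

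Start sites came from the RefSeq promoter table (GRCm38.p6, the build of the peaks), which holds windows from 250 bases before to 50 bases from each start. It matched 25 of the 28 genes with 30 windows; Gabrd, Glra1 and Slc12a2 have no entry. Of these windows 11, at 10 genes, overlapped a peak, against 20.2% of all 32851 windows. Among the 21263 windows of protein-coding genes, the class of all listed genes, 5429 did. The first 5 windows shown lie under a peak and the last 2, of Gabrg1 and Gabra6, belong to genes with no summit within 50 kb. They are written 5′ to 3′ on the gene's strand, with each CpG, the dinucleotide counted in the next paragraphs, in capitals.
Gabra5: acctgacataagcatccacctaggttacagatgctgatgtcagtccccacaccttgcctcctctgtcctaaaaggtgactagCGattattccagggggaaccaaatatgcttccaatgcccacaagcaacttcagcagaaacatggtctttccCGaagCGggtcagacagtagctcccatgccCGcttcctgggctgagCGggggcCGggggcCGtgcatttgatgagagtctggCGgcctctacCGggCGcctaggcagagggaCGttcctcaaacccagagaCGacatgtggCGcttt
Slc32a1: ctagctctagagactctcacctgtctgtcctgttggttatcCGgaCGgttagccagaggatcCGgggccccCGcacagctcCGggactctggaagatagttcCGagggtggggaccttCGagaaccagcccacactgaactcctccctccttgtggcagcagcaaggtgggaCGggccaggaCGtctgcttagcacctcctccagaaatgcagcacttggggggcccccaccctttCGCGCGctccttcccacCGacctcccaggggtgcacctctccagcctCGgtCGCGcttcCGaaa
Glrb: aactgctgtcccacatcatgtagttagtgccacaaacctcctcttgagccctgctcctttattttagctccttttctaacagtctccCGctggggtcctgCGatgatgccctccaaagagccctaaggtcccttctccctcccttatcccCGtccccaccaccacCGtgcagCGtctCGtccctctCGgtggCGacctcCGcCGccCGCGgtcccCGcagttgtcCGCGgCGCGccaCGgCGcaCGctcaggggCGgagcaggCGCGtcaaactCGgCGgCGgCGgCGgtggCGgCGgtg
Gabra2: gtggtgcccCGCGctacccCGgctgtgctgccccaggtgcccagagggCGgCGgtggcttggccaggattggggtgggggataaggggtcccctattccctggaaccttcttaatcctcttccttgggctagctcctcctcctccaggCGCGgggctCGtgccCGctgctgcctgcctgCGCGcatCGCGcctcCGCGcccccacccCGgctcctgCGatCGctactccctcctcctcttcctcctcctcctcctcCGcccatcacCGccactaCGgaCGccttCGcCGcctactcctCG
Gabrg3: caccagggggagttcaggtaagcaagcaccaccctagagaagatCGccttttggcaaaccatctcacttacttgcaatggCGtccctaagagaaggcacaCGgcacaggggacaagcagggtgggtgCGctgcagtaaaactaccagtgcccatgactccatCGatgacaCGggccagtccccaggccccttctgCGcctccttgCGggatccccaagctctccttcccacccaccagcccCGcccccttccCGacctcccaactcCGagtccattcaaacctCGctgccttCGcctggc
Gabrg1: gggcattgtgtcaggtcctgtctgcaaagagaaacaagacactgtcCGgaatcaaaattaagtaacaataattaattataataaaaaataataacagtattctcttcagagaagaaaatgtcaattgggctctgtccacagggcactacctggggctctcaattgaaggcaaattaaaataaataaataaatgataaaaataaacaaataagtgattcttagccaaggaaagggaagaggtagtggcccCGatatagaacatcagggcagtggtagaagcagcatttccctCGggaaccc
Gabra6: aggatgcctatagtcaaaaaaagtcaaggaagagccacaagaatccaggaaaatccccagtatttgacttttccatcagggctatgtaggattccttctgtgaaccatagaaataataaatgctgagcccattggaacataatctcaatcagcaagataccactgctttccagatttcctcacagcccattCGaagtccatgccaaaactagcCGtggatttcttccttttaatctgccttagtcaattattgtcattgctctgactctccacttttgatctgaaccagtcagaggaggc

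The window of Gabra5, an alpha subunit gene, lies at chr7:57510010-57510309 on the minus strand and holds 13 CpGs. That of Slc32a1, the gene of the vesicular GABA transporter, lies at chr2:158610508-158610807 on the plus strand and holds 17. Glrb, the beta subunit gene of the glycine receptor, has 30 CpGs at chr3:80913611-80913910 on the minus strand, the most of any window under a peak. Gabra2 (chr5:71095800-71096099, minus strand) has 25 and Gabrg3 (chr7:57387166-57387465, minus strand) 13. By contrast Gabrg1 (chr5:70842568-70842867, minus strand) has 3 and Gabra6 (chr11:42321023-42321322, minus strand) 2. The remaining genes with no summit within 50 kb, whose windows are not shown, differ: Gabre has 24 CpGs and Gabra3 has 0.

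Over the 11 windows under a peak the median was 18 CpGs, from 9 at Glra2 to 30 at Glrb, and over the other 19 it was 9, from 0 to 46. The ranges overlapped. Both windows of Gabra3 had 0 CpGs, while the most CpG-rich windows of all, Gabbr2 with 46 and Gphn with 42, lay under no peak. The same medians over all windows were 23 under a peak and 5 elsewhere, in the same direction. Over windows of protein-coding genes alone they were 24 and 8. Median GC content was 63.3% under a peak and 50.3% elsewhere among the listed genes, and 63.3% and 50.7% over all windows. For windows of protein-coding genes it was 64% and 53.3%.

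**Figure D1:**
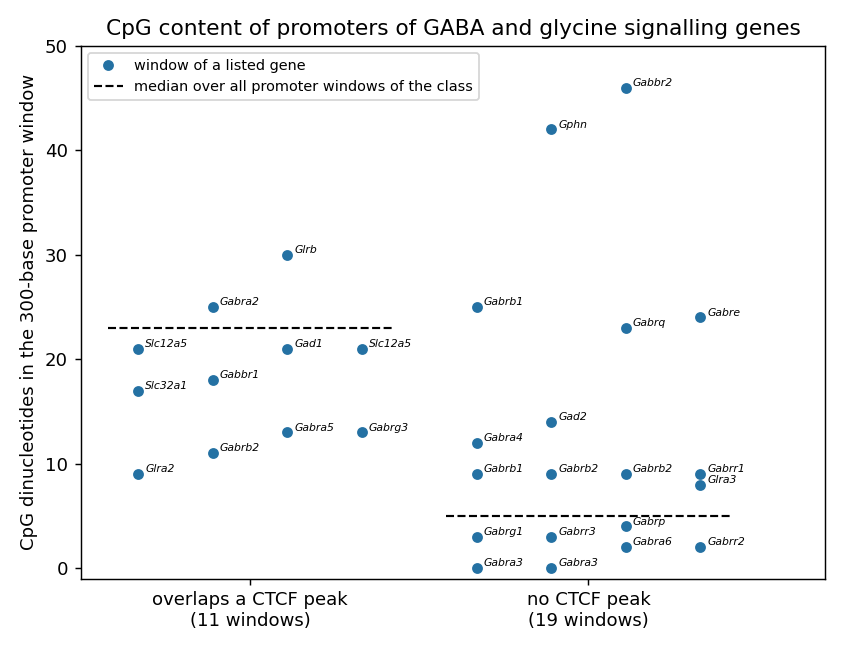
CpG dinucleotides in each 300-base promoter window of the listed genes (points), split by whether the window overlaps a CTCF peak. Dashed lines are medians over all promoter windows of each class, 23 and 5; windows under a peak hold 9 to 30 CpGs and the others 0 to 46.

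The CTCF core was searched on both strands as CCA, 2 free bases, AG, 2 free bases and GGC. These letters were in 0 of the 30 windows and in 2.43% of all windows. With 1 more position free (CC, 3 free bases, AG, 2 free bases, GGC), 2 genes had a match, Gabrg3 and Gabbr2, and 8.61% of all windows had one. The Gabrg3 match, CCGCAAGGAGGC on the opposite strand, ends 43 bases before the start. It lies under an end peak whose summit is 562 bp from that start, on the other side of it. The Gabbr2 match, CCCGGAGGCGGC, lies in a window without a peak. The search describes letters in 300 bases and not binding: the window of Gabra5 holds a summit 6 bp from its start and neither form of the core.

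An end peak was present at 8 of 28 genes (28.6%), against 29.2% of all protein-coding genes. The 8 were the receptor genes Gabra2, Gabrb2, Gabrg3, Glra1, Glra2 and Glrb, together with Gad1 and Slc12a2, and at none of them did the summit also lie at an end of another protein-coding gene. If each gene had the share of its length class, 10.1 would have one. Inside peaks were present in 16 genes (57.1%, against 35.5% of all genes), and the length classes give 16.9. The 28 genes held 33 inside summits, while the rates of their length classes over the bases of all 28 come to 46.9. No summit lay inside or within 50 kb of 4 genes (14.3%, against 17.1% of all genes). Among peaks above the median strength, 3 of the 28 kept an end peak (Gad1, Gabra2 and Glra1), where 14.9% of all genes did.

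**Figure D2:**
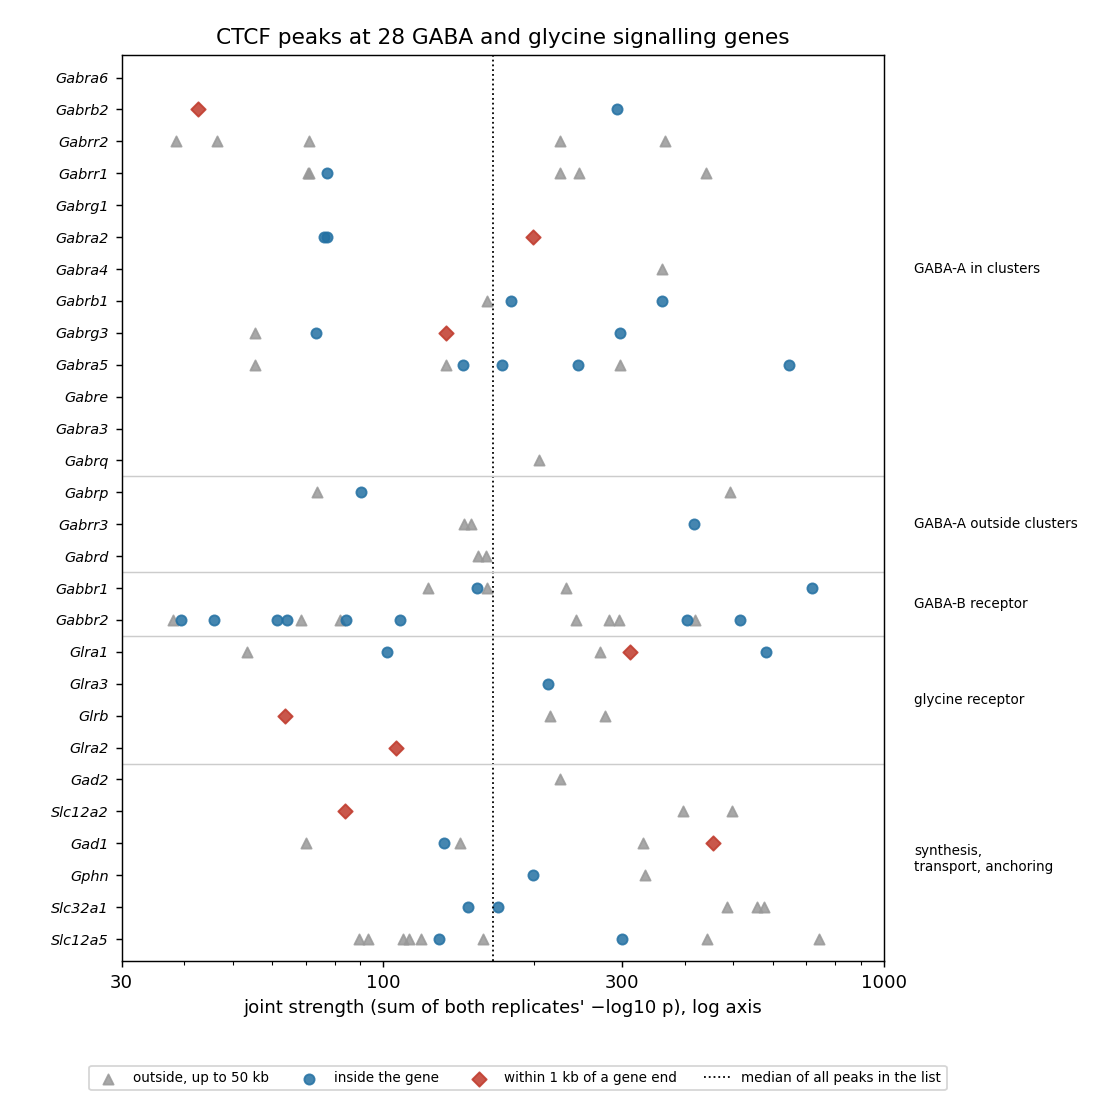
Joint strength of every CTCF peak at an end (red), inside (blue) or up to 50 kb outside (grey) each of the 28 genes, on a log axis, with the median of the whole list, 165.5, dotted. Gabra6, Gabrg1, Gabre and Gabra3 have no point, and Gabbr2 has the most, 15.

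The GABA-A and rho subunit genes fell into 5 genomic clusters of 13 genes, joined where gene bounds lay under 500 kb apart. From the first to the last listed gene the clusters spanned 3291 kb and held 20 summits, 0.61 per 100 kb, while the assembled chromosomes held 1.32 per 100 kb. The clusters differed among themselves: those on chromosomes 5, 7, 11 and X had fewer summits per 100 kb than their chromosome, and the one on chromosome 4 had more. All 4 genes without a summit within 50 kb were clustered GABA-A genes. Other genes in or beside these spans are not described here.

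The cluster on chromosome 5 (70751047 to 72149572) runs from Gabrg1, a gamma subunit gene, through the alpha subunit genes Gabra2 and Gabra4 to Gabrb1, a beta subunit gene. It held 6 summits in 1399 kb, 0.43 per 100 kb against 1.60 on the chromosome. The start of Gabra2, chr5:71095022-71096911, carried an end peak of strength 199, with 91.2 and 108 in the first and second replicate column. Its summit lay 293 bp outside the gene. A pair of weak inside peaks lay 3.17 kb and 1.81 kb inside the start, with strengths of 77.2 and 76.2. Farther out, 1 peak of strength 261 stood in the 474 kb between Gabra2 and Gabra4, over 50 kb from either gene. Gabrg1 was the emptiest of all, with its nearest summit 250 kb away. It sat in a stretch of 1388 kb without a summit, longer than 99.6% of the 33794 gaps between neighbouring summits. Gaps were ranked by number over all chromosomes, and long gaps hold more bases than short ones.

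Gabra4 and Gabrb1 stand head to head, with starts on opposite strands and bounds that overlap by 388 bp. This divergent pair had no peak at its shared start: the nearest summit lay 42.9 kb from the start of Gabra4. That summit belonged to the strongest peak of the cluster, chr5:71700659-71701602, with a strength of 360.4 (186 and 174 in the columns). It lies inside Gabrb1, 1294 bp from a second annotated start of that gene. Gabrb1, of 492 kb, held 1 further inside peak (180.3), and both together make 0.41 per 100 kb against 0.78 for genes over 300 kb.

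On chromosome 7 (56716463 to 57591016) Gabrg3, a gamma subunit gene of 671 kb, neighbours Gabra5. The cluster held 8 summits, 0.91 per 100 kb against 1.61 on the chromosome. The strongest peak of any clustered gene lay at the annotated start of Gabra5, chr7:57508666-57510548, with a strength of 645 (314 and 331 in the columns). It was stronger than about 94.1% of the list, and its summit stood 6 bp from that start. RefSeq bounds of Gabra5 reach 81.0 kb beyond this start, so the peak was counted as inside. The other inside peaks of Gabra5 had strengths of 245, 144 and 172.

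Gabrg3 carried an end peak at its start, chr7:57386377-57387735, of strength 133 (65.5 and 68.0). With an inside peak of 298 at 2.86 kb and a nearby one of 55.3 at 3.05 kb, it formed a group of 3 summits about that start. The gap between both genes is 20.5 kb and held 1 summit, the weak one. The rest of Gabrg3 was nearly bare: 1 other summit (73.3) lay in its body, and the longest stretch without a summit inside the cluster was 446 kb.

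The pair on chromosome 11 (42306437 to 42632591) is Gabra6, an alpha subunit gene best known from cerebellar granule cells, and Gabrb2, a beta subunit gene. Both summits of the cluster lay in the first 4 kb of Gabrb2. The end peak, chr11:42419028-42420293, was the weakest of all 8, with a strength of 42.6 (8.82 and 33.7), and was lost at a discovery rate of 0.01. The inside peak beside it reached 292 (55.5 and 237). Gabra6 had no summit within 98.9 kb. The cluster held 0.61 summits per 100 kb against 2.13 on the chromosome.

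On X (72256926 to 72842607) the genes Gabre, Gabra3 and Gabrq encode the epsilon, an alpha and the theta subunit. They shared 1 summit in 586 kb, 0.17 per 100 kb, against 0.44 on X, the lowest value among the chromosomes that carry these genes. It lay 5.40 kb outside Gabrq, at chrX:72819476-72820333, with a strength of 204 (32.3 and 172). Gabre and Gabra3 lay together in 1 stretch of 797 kb without a summit, and their nearest summits were 234 kb and 163 kb away. The stretch was longer than 98.9% of gaps over all chromosomes, and gaps were not ranked within X.

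The cluster on chromosome 4 (33057712 to 33163588) holds Gabrr2 and Gabrr1, which encode rho subunits, best known from the retina. In 106 kb it had 3 summits, 2.83 per 100 kb against 1.48 on the chromosome, and 9 with 50 kb on either side. Only 1 lay within a gene, in Gabrr1 (77.1), while 2 lay in the gap of 36.7 kb between both genes, at 226 and 70.9. The other nearby peaks ranged from 38.5 to 442. The strongest, 442 (186 and 256), was at an end of the neighbouring gene Pm20d2, and 2 weaker ones were at ends of Srsf12 (70.8) and Ube2j1 (46.5). Neither rho gene had an end peak.

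**Figure D3:**
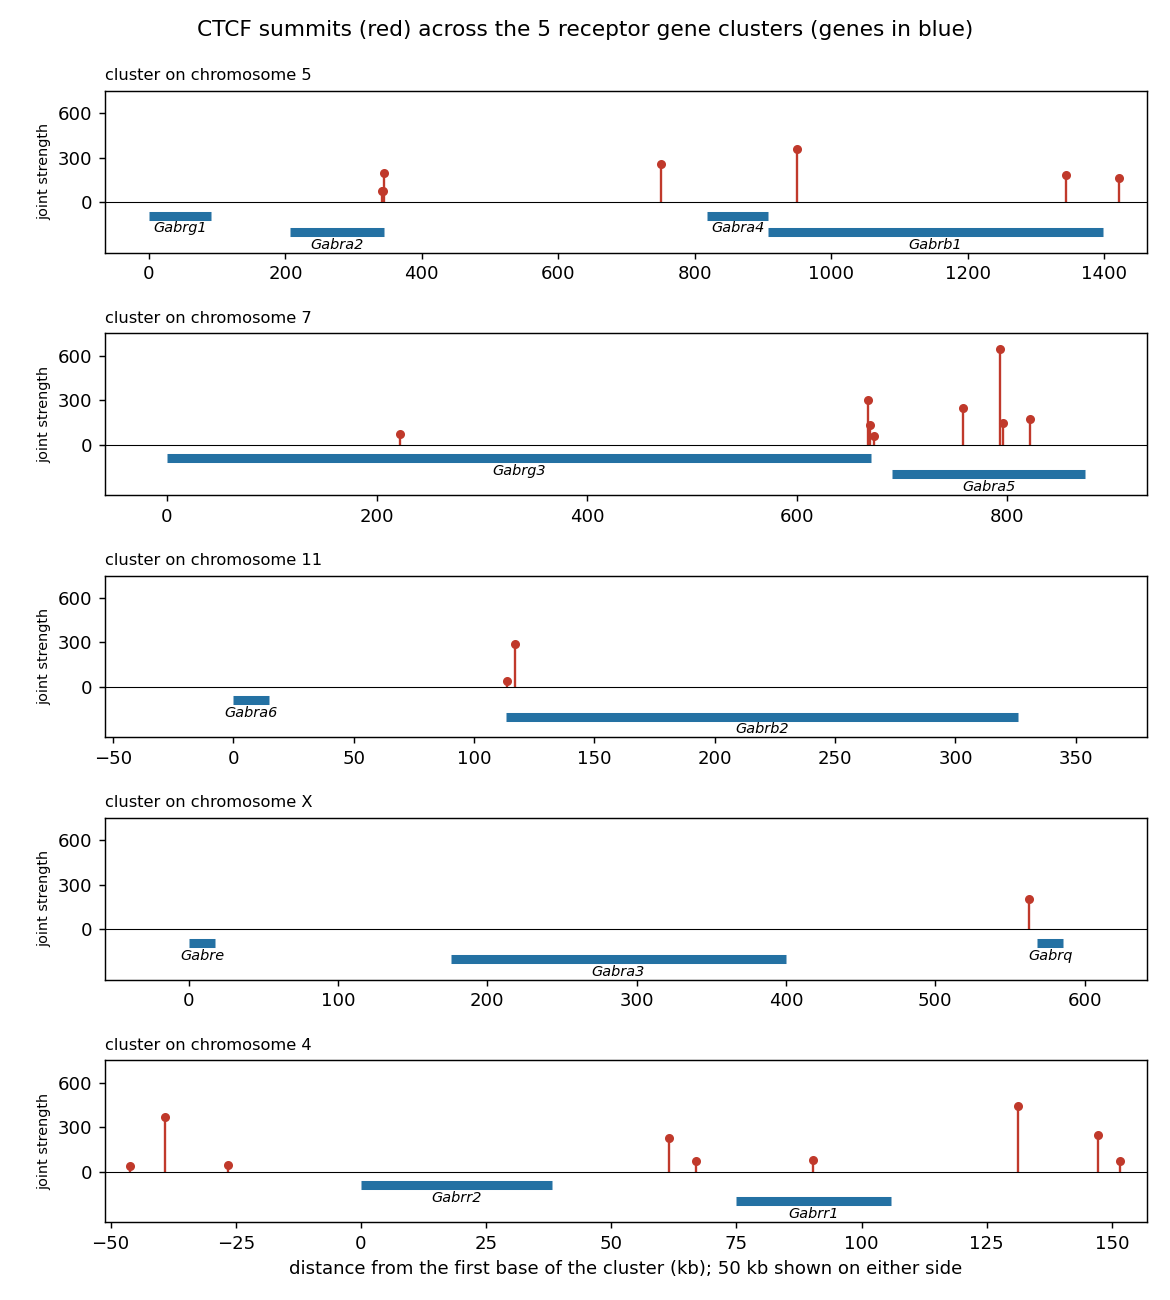
CTCF summits (red, height is joint strength) and the listed genes (blue bars) in the 5 receptor gene clusters, by distance from the first base of each cluster, with 50 kb on either side. Each panel has its own distance scale; X has 1 summit and chromosome 7 has the strongest, 645, inside Gabra5.

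The 3 GABA-A and rho genes outside clusters had no end peak. Gabrr3, the remaining rho gene, held 1 inside peak at chr16:59420182-59421857 with a strength of 417 (65.4 and 351), and nearby peaks of 149.9 and 145. Gabrp, the pi subunit gene, known mainly outside the brain, held a weak inside peak (90.3). Its nearby peaks were 492 (90.5 and 401) at 35.5 kb and 73.7 at an end of Ranbp17. Gabrd encodes the delta subunit, found in receptors outside synapses. No summit lay in it, and it sat between nearby peaks of 160.5 and 154 at 16.1 kb and 10.8 kb.

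Per 100 kb of gene, the GABA-B receptor genes held more inside summits than any of the other role groups. Gabbr1 and Gabbr2 encode the partners of the obligate GABA-B dimer, and together they had 10 inside peaks, 2.80 per 100 kb. Gabbr1, of 28.3 kb, held 2 inside peaks. The stronger, chr17:37049272-37051487, had a strength of 718 (293 and 424), the highest of any peak inside these genes, 4.09 kb from the start. The other, 154 (43.6 and 110), was 3162 bp wide and had its summit 1073 bp from the start, just outside the 1 kb window. That distance decides its class: by any base of the peak instead of the summit, Gabbr1, Gabbr2 and Slc12a5 also have an end peak, which makes 11 of 28, where 36.1% of all genes do.

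Gabbr2, of 329 kb, held 8 inside peaks, 2.43 per 100 kb against 0.78 for genes over 300 kb. Most of these were weak: 6 ranged from 39.5 to 108, while 515 (144 and 370) and 404 (92.5 and 311) stood apart. The peak of 404, chr4:46989363-46991409, lies 1601 bp inside the start. The weakest peak described here, 38.0, lay 44.0 kb outside the same gene, and another of its 7 nearby peaks was at an end of Tbc1d2 (242).

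Among the glycine receptor genes 3 of 4 had an end peak, beside 29.2% of all protein-coding genes and 33.7% and 41.8% in the length classes of these 4. Glra1, an alpha subunit gene, had the strongest, chr11:55606529-55608575, with 312 (88.1 and 224), its summit 938 bp from its upper end. With windows of 500 bp Glra1 had no end peak, where 20.4% of all genes had one. Above the median strength Glra1 alone of this group kept one, where 14.9% of all genes did. Glra1 also held inside peaks of 582 (114 and 467) and 102 (22.3 and 79.4). The end peak of Glra2, another alpha subunit gene, was 106 (17.1 and 88.9), with its summit 241 bp outside the gene and 715 bp from the start in the promoter table. This was the single summit within 50 kb of a gene of 199 kb, at the edge of a stretch of 787 kb without a summit.

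Glrb had an end peak at its start, chr3:80913048-80914018, of 63.6, and was 1 of 2 genes whose end peak was higher in the first replicate column (35.1) than in the second (28.5). Its nearby peaks were stronger, 215 and 277. Glra3, a further alpha subunit gene, had no end peak and 1 inside peak, 213 (33.6 and 180), deep in the gene, 66.8 kb from the nearer end. The strengths of end peaks (63.6 to 312) and of inside peaks (102 to 582) overlapped in this group.

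The genes for making and loading GABA differed from each other. Gad1 and Gad2 encode the glutamate decarboxylases that make GABA. Gad1 had the strongest end peak of the set, chr2:70560548-70562208, with 455 (140.4 and 315), a summit 67 bp outside its start end and 893 bp before the start in the promoter table. Around it lay an inside peak of 132 (46.6 and 85.4) and nearby peaks of 331 (73.1 and 258), 142 and 70.1. Gad2 had neither an end nor an inside peak. Its start stood 99747 bp from the nearest summit, and the gene lay in a stretch of 764 kb without one, next to a single peak of 225 (24.4 and 201) beyond its other end, 28.2 kb away.

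Slc32a1, of 8.49 kb, held 2 inside peaks, 148 (91.0 and 56.9) and 169 (53.6 and 116). The first lay 195 bp from the annotated start and was higher in the first column. Nearby stood 3 strong peaks of 485, 577 and 558, all on the side of the gene's finish, 13.9, 26.3 and 37.5 kb from its end. Gphn encodes gephyrin, the scaffold that anchors glycine and GABA-A receptors. In 467 kb it held 1 inside peak, 199 (34.4 and 165), or 0.21 per 100 kb against 0.78 for genes over 300 kb, and 1 nearby peak of 333.

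The chloride transporters Slc12a2 (NKCC1, which loads chloride into the cell) and Slc12a5 (KCC2, which extrudes it in mature neurons) also differed. Slc12a2 had an end peak of 83.9 at its lower end, 47.4 in the first and 36.5 in the second column, no inside peak, and nearby peaks of 397 and 498. Slc12a5 had no end peak but 10 summits inside or within 50 kb, in a gene of 38.9 kb. Its inside peaks were 299 (50.6 and 249), 1162 bp from its start, and 129 (59.3 and 69.7), 834 bp from a second annotated start. The strongest peak of the whole set, 742 (334 and 408), lay 7.43 kb outside Slc12a5 at chr2:164952365-164953948, stronger than about 95.7% of the list.

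Where the strand is known, all 6 end peaks lay at the start of the gene and 0 at its finish. Among all 17492 protein-coding genes with an entry, 24.3% had a summit within 1 kb of the start end and 6.57% of the finish end. The 6 of 25 listed genes with a start-end peak make 24.0%. Counting any annotated start instead of gene bounds, a count added after the data were seen, 9 of 25 genes (36.0%) had a summit within 1 kb, against 27.2% of all genes with an entry. The 3 genes that entered this way were Gabra5, Slc32a1 and Slc12a5. Just outside this limit were the starts of Gabbr1 at 1073 bp, of Gabrb1 at 1294 bp and of Gabbr2 at 1601 bp, and just inside it Gad1 at 893 bp and Slc12a5 at 834 bp.

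**Figure D4:**
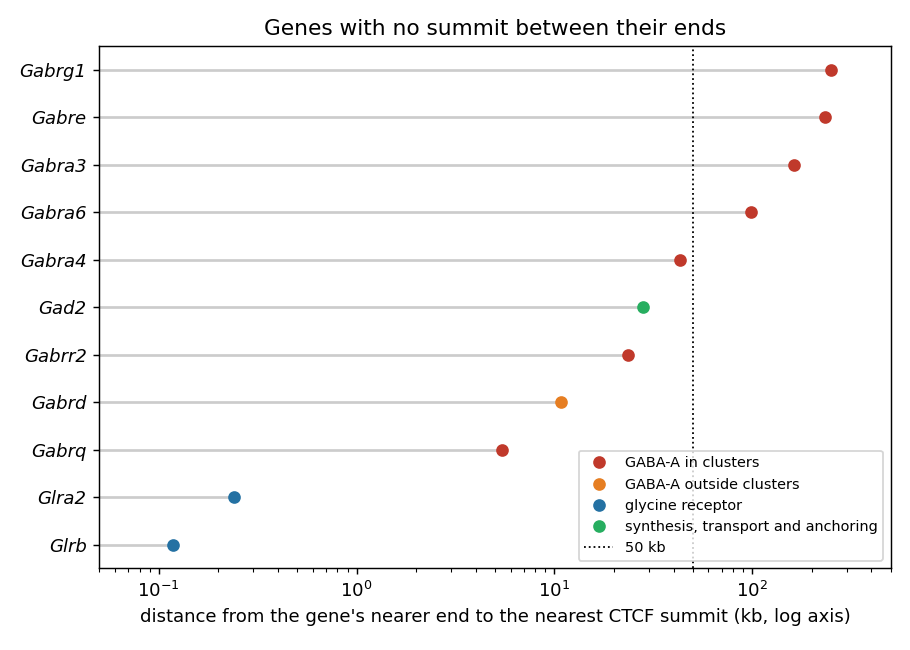
Distance from the nearer gene end to the nearest CTCF summit, on a log axis in kb, for the 11 genes with no summit between their ends. Glrb and Glra2 have an end peak just outside the gene, and Gabra6, Gabra3, Gabre and Gabrg1 lie beyond 50 kb.

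The replicate columns differed in level, and differently by place. Over the whole list the medians were 30.9 in the first and 129 in the second column, and the depth of either library is unknown. The 8 end peaks of these genes had medians of 56.4 and 78.4, a median log2 ratio of second to first of 0.70, against 0.40 over all 6096 end peaks. The 33 inside peaks had medians of 34.4 and 116 and a log2 ratio of 1.83, against 1.95 over all inside peaks. The 49 nearby peaks had a log2 ratio of 2.15, against 2.17 over nearby peaks neither inside nor at an end of any protein-coding gene. End peaks of these genes split in that respect. Gabra2, Gabrg3, Glrb and Slc12a2 had near-equal columns, with log2 ratios from −0.38 to 0.24, while Gabrb2 and Glra2 stood at 1.94 and 2.38. The count of end peaks depends on the column used: 6 genes had one above the median of the first column (21.1% of all genes) and 2, Gad1 and Glra1, above that of the second (13.1% of all genes).

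**Figure D5:**
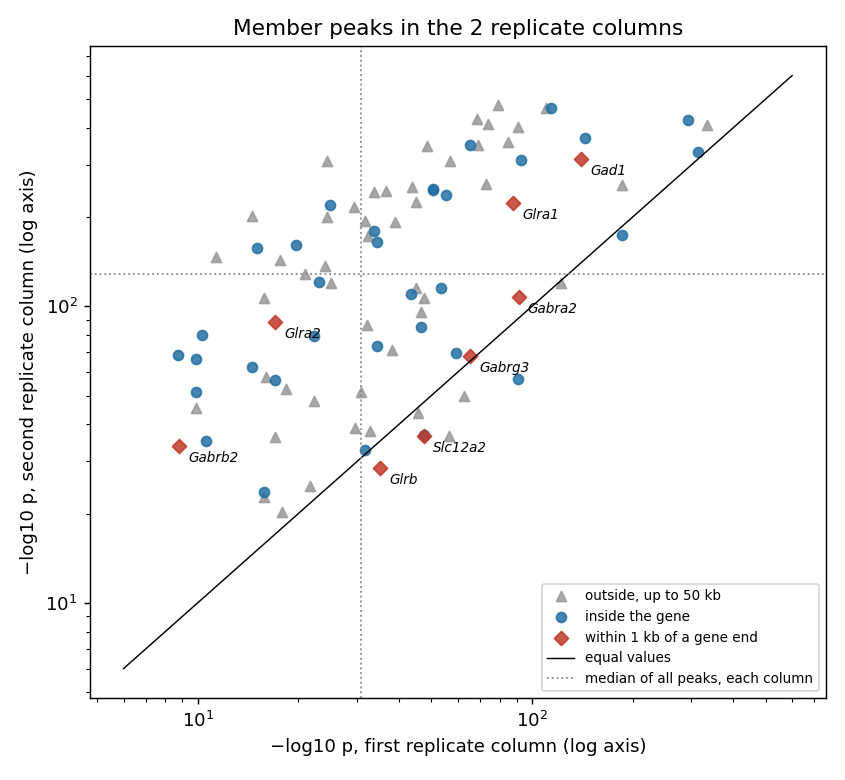
Deposited −log10 p of the 90 distinct peaks in the first and second replicate column, both on log axes, with the line of equal values and each column's median over the list (30.9 and 129). End peaks are named; Glrb and Slc12a2 lie below the line.

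The end peaks of these genes had a median strength of 119.7, from 42.6 to 455, beside 160.7 over all end peaks, and 5 of the 8 lay below that value. Inside peaks had a median of 154, against 152 over all genes, and nearby peaks 161, against 193. The nearby classes are unlike. Over all genes, nearby peaks were those neither inside nor at an end of any protein-coding gene, while nearby peaks of the listed genes could lie in or at another gene. End peaks were wider, with a median of 1510 bp against 1001 bp for inside peaks, and over all genes these widths were 1309 and 1111 bp.

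A list of 29 other genes of inhibitory synapses (transporters, breakdown enzymes, scaffolds and trafficking or accessory proteins) was counted the same way. End peaks were present at 18 of them (62.1%), beside the 8 of 28 receptor and synthesis genes and 29.2% of all protein-coding genes, and no gene of the list lacked a summit within 50 kb. Inside peaks were present in 16 of 29 (55.2%, against 35.5% of all genes). Of all genes of 30 to 100 kb, 33.7% had an end peak and 57.2% an inside peak. In the list the median gene length was 34.0 kb, against 71.5 kb in the 28 genes. The strongest end peaks were at Aldh5a1, which breaks down GABA (591, with 287 and 304 in the columns), the GABA transporter gene Slc6a11 (582, with 109 and 474) and Plcl2, an inositol phosphate binding protein related to phospholipase C (488, with 208 and 280). With windows of 500 bp the count was 11 of 29, beside 6 of 28 and 20.4% of all genes.

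Genes of glutamate receptors, the excitatory counterpart, had end peaks at 13 of 26 (50.0%, against 29.2% of all genes) and inside peaks in 19 (73.1%, against 35.5%), with a median length of 298 kb. Of all genes of 100 to 300 kb, 41.8% had an end peak and 81.7% an inside peak. Over 300 kb these shares were 47.8% and 91.4%. The strongest end peaks of glutamate receptor genes were at Grik4 (1060.1), Grin3a (1039) and Grm8 (801), all above the 455 of Gad1. Inside density was 0.49 per 100 kb, beside 0.84 in the inhibitory genes. Over all protein-coding genes it was 1.46, with 1.86 at 30 to 100 kb, 1.38 at 100 to 300 kb and 0.78 over 300 kb. The lists differ in median length, 298 kb against 71.5 kb, and the densities were not adjusted for it. The counts are of genes that are not replicates, and the differences between lists were not tested.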

How the data were processed

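CTCF was measured by chromatin immunoprecipitation and sequencing. The file, in the layout of the IDR program, holds peaks matched between the replicates. BWA, MACS2, SAMtools, Trimmomatic and FastQC are named, without versions, per the submitters' processing notes. How inputs entered peak calling is not given in the sources used here. Deposited −log10 values give p per replicate and the discovery rate, and the deposited score is a rescaled discovery rate. The strength equals the sum of both columns within 0.001 in all 33820 peaks. The columns are not tied to a labelled replicate.

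Gene bounds came from a RefSeq table of GRCm38.p6, built on C57BL/6J, another strain than the cells'. Genes listed on scaffolds were left out. Summits are the peak start plus the deposited offset. Length classes were bounded at 10, 30, 100 and 300 kb. No test over genes was run, because genes are not replicates. Members and lists were chosen with earlier results of these data known. Described in full were end peaks, the strongest and weakest inside peaks, genes with most or no summits, and the 3 strongest end peaks of other lists; other values were chosen after they were seen. The assignment was tested on simulated data and placed 2610 of 2610 genes correctly. Only long genes lying far apart were used, with no more than a single planted peak each. The test therefore did not cover short, clustered or overlapping genes, or peaks shared between genes. Alternatives were peaks above the median of the strength or of either column, a discovery rate of 0.01, any base of a peak, end windows of 500 bp and 5 kb, flanks of 20 and 100 kb, unshared ends, a looser motif and annotated starts. Python 3.11.15, numpy 2.4.6, pandas 2.3.3 and matplotlib 3.10.9 were used.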

Additional observations from a re-analysis of the deposited data

How the results depend on the processing

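Of 94 recomputed values 58 stayed within 1.5 times the reported one and 36 did not. Peaks above the median strength left 3 genes with an end peak, 0.41 inside summits per 100 kb, a median end strength of 312, 14 summits at the clusters, and end peaks at 9 other inhibitory synapse genes and 6 glutamate receptor genes. Above the median of the second column these were 2, 0.38, 383, 14, 9 and 6, and 7 genes had no summit within 50 kb. Above the median of the first column the inside density was 0.51 and the clusters held 11 summits. By construction these 3 settings keep the stronger part of the list. With ends of 5 kb, 13 of 28 genes had an end peak, where 51.3% of all genes did, the inside density was 0.54 per 100 kb and 21 glutamate receptor genes had an end peak. With 500 bp, 11 other inhibitory synapse genes had one, where 20.4% of all genes did. With flanks of 20 kb, 7 genes had no summit. The share of all genes without a summit was not computed at this flank or above the median of the second column. Neither count of 7 can therefore be compared with all genes. The looser motif was found at 2 genes instead of 0. The clusters held 27 summits with 50 kb on either side. No paired analysis was possible because the list joins both replicates and its columns carry no replicate number. Depth is unknown, so a gene without a listed peak has no peak at this threshold and depth, which does not show that CTCF is absent there.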
